A study of Mus musculus with 10 samples.

Results

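The cytosolic heat shock chaperones were described in livers of macroH2A double knockout and wild-type mice, as a set of 10 genes: Hspa1a, Hspa1b, Hsph1, Dnajb1, Hspb1, Hsp90aa1, Hsp90ab1, Hspa8, Bag3 and their transcription factor Hsf1. A gene was taken from the deposited array table by its symbol, using probe sets that the platform annotation gives to that gene alone, and where there were several, the one of highest mean level in the 10 arrays stood for the gene. This gave values for 8 of the 10 genes, among 22180 genes so represented on the array, while Hsp90ab1 and Hsf1 were on no named probe set and are not analysed here. The 8 genes had 12 probe sets of their own, and 2 further probe sets were shared with another symbol. All mice were male, of strain 129/S6 (taconic) and 2 months old, and were fasted overnight for about 16 h before the liver was taken in the morning. The 2 groups were 5 wild-type livers and 5 livers lacking macroH2A1 and macroH2A2, variants of histone H2A with a large extra domain. The labels do not say whether the knockout is limited to a cell type or whether each liver came from a separate animal, so p-values measure the spread between these samples.

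Heat shock proteins of the cytosol bind unfolded proteins and help them fold, or pass them on for breakdown. HSP70 proteins work in a cycle of ATP use: J-domain proteins such as Dnajb1 deliver clients and start ATP hydrolysis, and exchange factors such as Hsph1 and Bag3 release ADP. Small heat shock proteins such as Hspb1 hold unfolded proteins without ATP, and HSP90 acts later on kinases and steroid receptors. Hsf1 switches on the inducible members of this set under heat, oxidation or drugs that unfold proteins, by binding repeats of the motif nGAAn in their promoters, and Hspa8 and Hsp90ab1 are made in unstressed cells as well.

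Promoters of inducible members are shown because the array values below concern genes known to share this control. RefSeq promoter windows (GRCm38.p6, 250 bases before to 50 after each start) were at hand for 6 of the 10 genes, namely Hspa1a, Hspa1b, Hspb1, Hsph1, Dnajb1 and Bag3. The 130 bases before the start are printed 5′ to 3′ on the gene's strand, and capitals mark GAANNTTC or TTCNNGAA, the 2 ways in which a pair of inverted units can meet (N is any base, and both motifs read the same on both strands). The windows lie at chr17:34972157-34972286 (minus strand) for Hspa1a, chr17:34959239-34959368 (minus strand) for Hspa1b, chr5:135887789-135887918 (plus strand) for Hspb1 and chr5:149636337-149636466 (minus strand, the most upstream of its starts) for Hsph1.
Hspa1a: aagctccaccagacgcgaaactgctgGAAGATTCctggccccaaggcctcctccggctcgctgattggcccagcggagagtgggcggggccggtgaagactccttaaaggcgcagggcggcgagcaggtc
Hspa1b: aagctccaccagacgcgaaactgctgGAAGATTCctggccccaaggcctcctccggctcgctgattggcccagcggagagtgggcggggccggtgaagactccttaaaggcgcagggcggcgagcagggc
Hspb1: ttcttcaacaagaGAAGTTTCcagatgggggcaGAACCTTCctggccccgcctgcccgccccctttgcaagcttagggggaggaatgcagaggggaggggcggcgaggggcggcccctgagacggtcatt
Hsph1: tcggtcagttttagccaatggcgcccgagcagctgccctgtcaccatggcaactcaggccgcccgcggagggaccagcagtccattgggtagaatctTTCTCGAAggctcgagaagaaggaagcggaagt

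The promoters of Hspa1a and Hspa1b were the same at 129 of these 130 bases, and at 247 of the 250 bases before the start. Each held GAANNTTC at -104 to -97, counted from the base before the start as -1. Hspb1 held the same motif at -117 to -110 and at -97 to -90, and Hsph1 held TTCNNGAA at -33 to -26. Behind the start of Hsph1, TTCNNGAA and GAANNTTC shared their middle 3 bases at 37 to 49, which makes 3 units in a row, and Bag3 held GAANNTTC at 43 to 50. Dnajb1 had neither in its windows. Thus 5 of 6 genes held at least 1 of the motifs, against 17% of the 27025 genes with a window. Hspa1a and Hspa1b, with their near-identical promoters, are both counted among the 5. Over all 32851 windows, 7.86% held GAANNTTC, 8.52% held TTCNNGAA and 0.603% held both motifs overlapping by 3 bases, in either order, as in Hsph1. A match describes the letters and is no measure of binding.

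Each array gave log2 levels for 41345 probe sets, and the 25335 that carry a gene symbol were tested. Array medians lay between 6.43 and 6.46 and correlations between arrays between 0.989 and 0.995. The 95th percentile of mean levels over 1108 olfactory receptor probe sets was 6.54 and is called the background guide here, since these receptors belong to the nose. The Macroh2a1 probe set stood at 9.51 to 9.66 in the wild-type and 9.02 to 9.18 in the double knockout arrays and was called (difference -0.49, limma adjusted p = 0.00128), and Macroh2a2 at 5.86 to 6.55 and 5.99 to 6.44, below that guide in all arrays but wild-type replicate 4. Whether these probe sets cover the deleted exons is not stated in the sources used here. Hepatocyte markers had a mean level of 13.4 in either group and 0 of 10 were called. Pancreatic acinar markers had means of 9.73 and 10.79 in wild-type replicates 4 and 5 and of 8.55 and 8.82 in double knockout replicates 1 and 2, against 5.89 to 6.65 in the other arrays.

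All 8 measured genes had a higher mean in the double knockout than in the wild-type livers, as 48.5% of tested probe sets did. The differences were 0.06 to 0.78 on the log2 scale, with a median of 0.32 against -0.003 over all probe sets tested. In limma 0 of the 8 were called at an adjusted p under 0.05, where 0.884% of tested probe sets were called, 0.332% as higher and 0.553% as lower. At an adjusted p under 0.10, 2 of the 8 were higher (Hspa1b and Hsph1), against 1.01% of tested probe sets, and 2.31% passed in either direction. At an unadjusted p under 0.05, 6 of the 8 were higher (Hspa1a, Hspa1b, Hsph1, Hspb1, Hsp90aa1 and Bag3), against 7.52% of all tested probe sets, while 0 were lower, against 7.6%, and 15.1% passed in either direction. Hspa1a, 1 of these 6, lay below the background guide in all arrays. The groups overlapped for all 8 genes, whereas 1.75% of tested probe sets were higher and 2.15% lower without overlap. The livers were whole tissue, so a change in RNA per cell and a change in the number of cells of a type cannot be told apart.

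**Figure D1:**
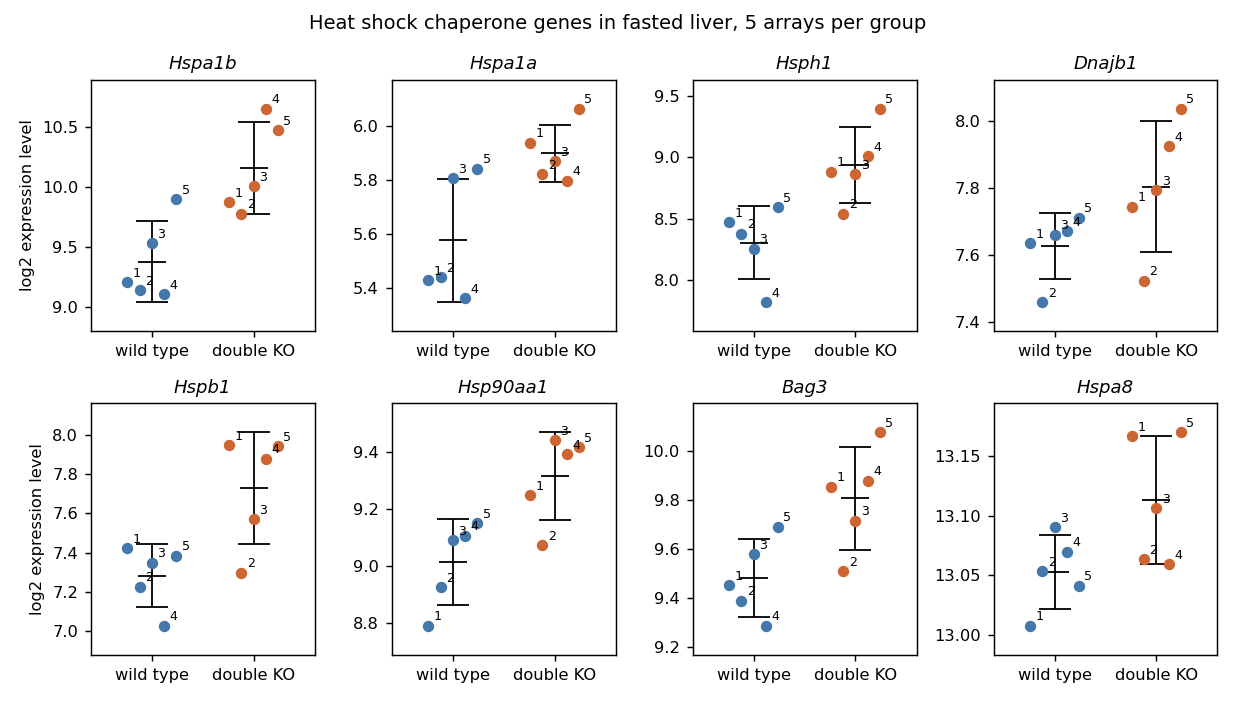
Log2 expression level of the 8 measured genes, 1 panel per gene with its own vertical scale; points are arrays numbered by replicate, and bars are the mean and SD of 5 arrays. Hspa1b spans 9.11 to 9.90 in wild-type and 9.78 to 10.65 in double knockout livers, and the groups overlap in all 8 panels.

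Among the HSP70 genes, the inducible Hspa1b had the largest and the constitutive Hspa8 the smallest difference of all 8 measured genes, by main probe set. The 3 other Hspa8 probe sets differed by 0.14, 0.18 and 0.20, against 0.18 for Dnajb1, so the place of Hspa8 holds for its main probe set only. Hspa1b, the main stress-inducible HSP70, stood at 9.21, 9.14, 9.54, 9.11 and 9.90 in wild-type replicates 1 to 5 and at 9.88, 9.78, 10.01, 10.65 and 10.48 in double knockout replicates 1 to 5. The groups overlapped through wild-type replicate 5 alone, which lay above double knockout replicates 1 and 2. Means were 9.38 ± 0.34 and 10.16 ± 0.38 (SD, n = 5 each), a difference of 0.78 (SE 0.19, 95% interval 0.37 to 1.19), or 1.72-fold, with a limma adjusted p = 0.0813. Of the 10 fits that leave out a single array, 1 gave a call, at 0.91 without wild-type replicate 5 (limma adjusted p = 0.042). In the other 9 the difference ran from 0.66 (without double knockout replicate 4) to 0.87 (limma adjusted p from 0.0712 to 0.181).

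Hspa1a encodes nearly the same protein as Hspa1b. Its probe set read 5.43, 5.44, 5.80, 5.36 and 5.84 in wild-type and 5.94, 5.82, 5.87, 5.80 and 6.06 in double knockout replicates 1 to 5. Wild-type replicates 3 and 5 reached into the double knockout range, and all 10 values lay below the background guide of 6.54, so this probe set gives little about the transcript's level. Means were 5.57 ± 0.23 and 5.90 ± 0.11 (SD, n = 5 each), a difference of 0.32 (SE 0.10, 95% interval 0.11 to 0.54, limma adjusted p = 0.149). A probe set annotated to Hspa1a and Hspa1b together had means of 5.83 and 5.80 and a difference of -0.02 (95% interval -0.14 to 0.09). How far these probe sets tell the near-identical genes apart was not tested.

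Hspa8 is the HSP70 of unstressed cells. Its main probe set stood at 13.01, 13.05, 13.09, 13.07 and 13.04 in wild-type and 13.17, 13.06, 13.11, 13.06 and 13.17 in double knockout replicates 1 to 5. Double knockout replicates 1, 3 and 5 lay above every wild-type array, by little. The difference was 0.06 (SE 0.04, 95% interval -0.03 to 0.15, limma adjusted p = 0.529), which bounds a change of this probe set at 1.11-fold. Its 3 other probe sets, with means near 9.4, differed by 0.14, 0.18 and 0.20 (limma adjusted p from 0.302 to 0.457), larger than the main probe set and in the same direction. The 95% interval of the one at 0.14 lay above 0 (0.007 to 0.28), and those of the others reached below 0. Hspa8 is known for processed copies in the genome, and which of them these probe sets read was not tested. A probe set shared with the small nucleolar RNA Snord14e differed by -0.11 (95% interval -0.74 to 0.53).

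Of the partners of HSP70, Hsph1 had the largest difference. Hsph1, an HSP110 protein that releases ADP from HSP70, stood at 8.47, 8.38, 8.26, 7.82 and 8.59 in wild-type and 8.88, 8.54, 8.87, 9.01 and 9.40 in double knockout replicates 1 to 5. The groups overlapped in a single place, double knockout replicate 2 lying just below wild-type replicate 5. Means were 8.30 ± 0.30 and 8.94 ± 0.31 (SD, n = 5 each), a difference of 0.64 (SE 0.16, 95% interval 0.29 to 0.98), or 1.55-fold, with a limma adjusted p = 0.0879.

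Bag3 couples HSP70 to small heat shock proteins and to autophagy. It stood at 9.45, 9.39, 9.58, 9.29 and 9.69 in wild-type and 9.86, 9.51, 9.72, 9.88 and 10.08 in double knockout replicates 1 to 5, and 4 double knockout arrays lay above the highest wild-type array. The difference was 0.33 (SE 0.10, 95% interval 0.10 to 0.55, limma adjusted p = 0.158). Dnajb1, the inducible J-domain partner of HSP70, read 7.64, 7.46, 7.66, 7.67 and 7.71 in wild-type and 7.74, 7.52, 7.79, 7.92 and 8.04 in double knockout replicates 1 to 5. Replicate 2 was the lowest array in both groups, and the other 4 double knockout arrays lay above every wild-type array. The Dnajb1 difference was 0.18 (SE 0.09, 95% interval -0.01 to 0.36, limma adjusted p = 0.362).

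Hspb1, a small heat shock protein, stood at 7.42, 7.23, 7.35, 7.03 and 7.38 in wild-type and 7.95, 7.30, 7.57, 7.88 and 7.94 in double knockout replicates 1 to 5. Double knockout replicate 2 lay inside the wild-type range and the other 4 lay above it. Means were 7.28 ± 0.16 and 7.73 ± 0.29 (SD, n = 5 each), a difference of 0.45 (SE 0.12, 95% interval 0.17 to 0.72), or 1.36-fold, with a limma adjusted p = 0.12. Of the 10 fits that omit a single array, 1 gave a call, at 0.55 without double knockout replicate 2 (limma adjusted p = 0.0376). In the other 9 the difference ran from 0.38 (without wild-type replicate 4) to 0.48 (limma adjusted p from 0.116 to 0.243). The second Hspb1 probe set, with a mean below the background guide, differed by 0.06 (95% interval -0.13 to 0.25).

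Hsp90aa1, the inducible cytosolic HSP90, read 8.79, 8.93, 9.09, 9.11 and 9.15 in wild-type and 9.25, 9.07, 9.44, 9.39 and 9.42 in double knockout replicates 1 to 5. Again double knockout replicate 2 alone lay within the wild-type range. The difference was 0.30 (SE 0.09, 95% interval 0.12 to 0.49), or 1.23-fold, with a limma adjusted p = 0.124.

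**Figure D2:**
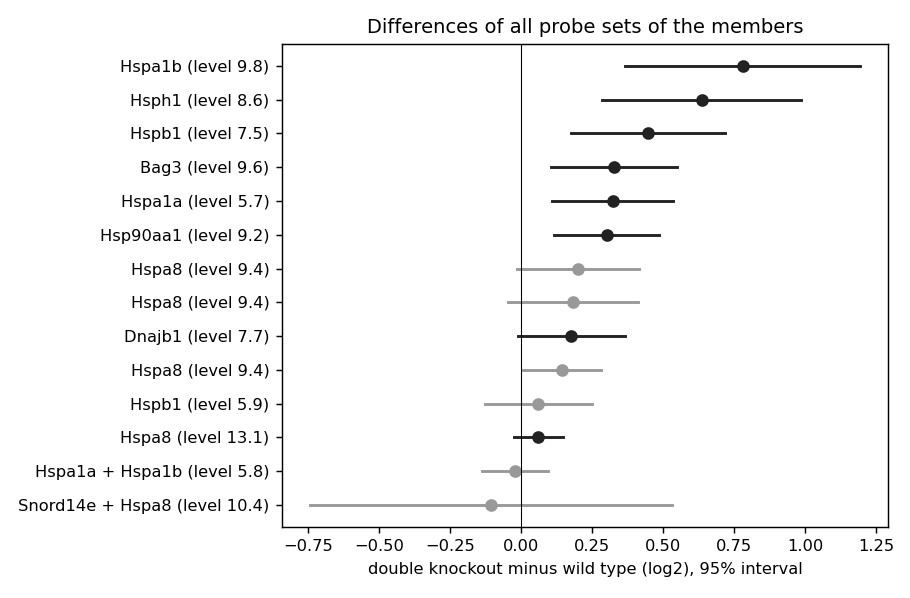
Difference between double knockout and wild-type means on the log2 scale with its 95% interval from limma, for all 14 probe sets of the measured genes; black marks the main probe set of a gene, grey its other or shared probe sets, and labels give the mean level. The main intervals of Hspa1b, Hsph1, Hspb1, Bag3, Hspa1a and Hsp90aa1 lie above 0, and those of Dnajb1 and the main Hspa8 probe set reach below 0. Of the grey intervals, that of an Hspa8 probe set with a difference of 0.14 lies above 0 (0.007 to 0.28), and the others reach below 0.

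The inducible genes also varied much within each group. The SD within groups was 0.36 for Hspa1b and 0.30 for Hsph1, larger than for 98.6% and 98% of all tested probe sets. Hspb1 had 0.23 and exceeded 96% of them, Bag3 0.19 and 92.4%, Hspa1a 0.18 and 91.4%, Dnajb1 0.15 and 86%, and Hsp90aa1 0.15 and 85.6%. The main Hspa8 probe set had 0.04, above 3.83% of all probe sets and above 38.5% of those whose mean level lay within 0.5 of its own. Its 3 other probe sets, of lower level, had 0.10, 0.18 and 0.19, above 57.4%, 91.6% and 93.4% of all probe sets, so the low spread holds for the main Hspa8 probe set only.

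Genes of the set shared part of this spread. For each array the deviation from its group mean was taken for the 7 inducible genes (all measured members other than Hspa8). Hspa1a is among them although its values lay below the background guide. Wild-type replicate 5 was the highest wild-type array for 6 of the 7 genes and above the group mean for all 7, and wild-type replicate 4 was the lowest for 5. Among double knockout arrays, replicate 2 was below the group mean for all 7 genes and the lowest for 6, with Hspa1a the exception, while replicate 5 was above the mean for all 7. The mean deviation over the 7 genes ran from -0.30 in double knockout replicate 2 to 0.25 in double knockout replicate 5, and from -0.18 to 0.23 in the wild-type arrays. Wild-type replicates 4 and 5 and double knockout replicate 2 were among the arrays rich in pancreatic acinar markers (means 9.73, 10.79 and 8.82). Double knockout replicate 5 was not (6.05). Whether the correlations below hold without the 4 pancreas-rich arrays was not tested.

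**Figure D3:**
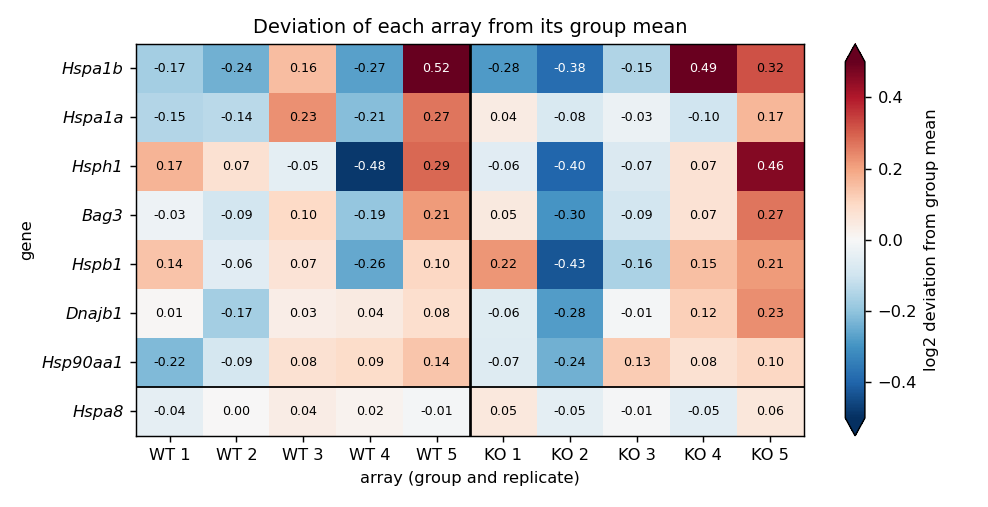
Log2 deviation of each array (columns, group and replicate) from the mean of its own group for the 7 inducible genes and, below the line, Hspa8; red is above and blue below the group mean. Wild-type replicate 5 and double knockout replicate 5 are above it for all 7 inducible genes, and double knockout replicate 2 is below it for all 7.

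Over the 10 arrays, Pearson's r between these deviations was above 0 for all 21 pairs of inducible genes, from 0.24 to 0.87 with a median of 0.63, and Spearman's rho ran from 0.09 to 0.79 with a median of 0.52. Without the 2 arrays farthest from the median of 1 gene of the pair, r was above 0 for 20 pairs. It then ran from -0.17 (Hspb1 and Hsp90aa1) to 0.87, with a median of 0.57. After adjustment over the 21 pairs, 5 had p under 0.05 for Pearson's r in an exact permutation test within groups (two-sided), and 4 of these pairs involved Bag3. Bag3 and Hspb1 had r = 0.87 and rho = 0.76 (exact p = 0.0025, adjusted p = 0.0343), and r = 0.67 without the 2 arrays farthest from the median of Hspb1. Bag3 and Hsph1 had r = 0.86 and rho = 0.79 (exact p = 0.00521, adjusted p = 0.0343), and r = 0.78 without the 2 arrays farthest out in Hsph1. Bag3 and Hspa1b had r = 0.81 and rho = 0.78 (exact p = 0.00847, adjusted p = 0.0356), and r = 0.87 without the 2 arrays farthest out in Hspa1b.

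Hsph1 and Hspb1 had r = 0.80 and rho = 0.62 (exact p = 0.00597, adjusted p = 0.0343), with r = 0.74 when the 2 arrays farthest out in Hsph1 were omitted. Hspa1a and Bag3 had r = 0.76 and rho = 0.68 (exact p = 0.00653, adjusted p = 0.0343), with r = 0.71 without the 2 farthest out in Hspa1a. In this pair all Hspa1a values lay below the background guide. For Spearman's rho, 0 of the 21 pairs passed the adjustment, and the lowest adjusted exact p was 0.109. Hsp90aa1 was least tied to the others, with r = 0.24 to Hsph1 and 0.25 to Hspb1, and its strongest pair was Dnajb1 (r = 0.72, rho = 0.64, exact p = 0.0252, adjusted p = 0.0662, and r = 0.53 without the 2 farthest arrays in Dnajb1). Median r was 0.57 within the wild-type and 0.75 within the double knockout arrays, and this difference was not tested. Within the wild-type arrays r was -0.32 for Hspb1 and Hsp90aa1, -0.30 for Hsph1 and Hsp90aa1 and -0.09 for Hsph1 and Dnajb1, and above 0 for the other pairs. The main Hspa8 probe set had r from -0.01 to 0.47 to the 7 genes (7 relations, adjusted exact p from 0.662 to 0.982).

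**Figure D4:**
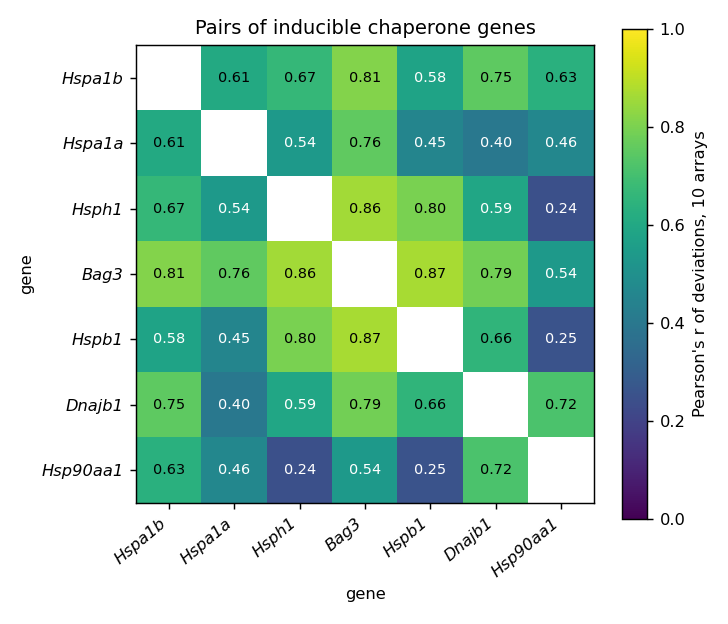
Pearson's r over 10 arrays between deviations from the group mean, for each pair of the 7 inducible genes; the colour scale runs from 0 to 1. Bag3 has r of 0.76 or more with Hspa1b, Hspa1a, Hsph1, Hspb1 and Dnajb1, and Hsp90aa1 has the lowest values, 0.24 with Hsph1 and 0.25 with Hspb1.

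Other genes were ranked by r with the mean deviation of the inducible genes, as a description over 10 arrays that share their RNA samples. Among 12550 genes above the background guide, 6 (0.0478%) had r above 0.9. How many of so many unrelated genes would reach this r by chance over 10 arrays was not tested. The ranking therefore marks no gene as tied to the set. Outside the lists and leaving out predicted genes, the 8 genes of highest r were Aire (0.96), Fbln7 (0.94), Copg1 (0.94), Dido1 (0.93), Sod2 (0.90), Ppp2r2a (0.90), Gpr137b (0.90) and Akap8 (0.90). Their group differences were small, from -0.03 for Fbln7 to 0.21 for Gpr137b (limma adjusted p from 0.181 to 0.999). Sod2, the superoxide dismutase of mitochondria, stood at 12.62 and 12.60 in wild-type and double knockout livers, and Copg1, a coat protein of transport vesicles, at 10.59 and 10.66. Chordc1, an HSP90 co-chaperone looked up after its values were seen, ranked 29 with r = 0.85, and Cct2, a subunit of the chaperonin, ranked 48 with 0.84.

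In lists of the wider chaperone system of the cytosol, median differences ran from -0.06 to 0.12, and 0 genes were called. The counts in this and the following lists stand beside these shares of all tested probe sets. A higher mean was found for 48.5%, and 0.884% were called. At an unadjusted p under 0.05 in limma 7.52% were higher and 7.6% lower, and without overlap 1.75% were higher and 2.15% lower. Among 8 measured HSP70 and HSP110 relatives 0 were called, 1 was higher at an unadjusted p under 0.05 in limma, and the median difference was 0.06. Hspa4, an HSP110 protein, differed by 0.13 (limma adjusted p = 0.35) and Hspa13, an HSP70 relative of microsomes, by 0.13 (limma adjusted p = 0.27). Of 11 J-domain co-chaperones 0 were called and 1 was higher at that unadjusted p, Dnaja2, a partner of Hspa8. Dnaja2 had means of 10.30 ± 0.07 and 10.49 ± 0.05 (SD, n = 5 each) with no overlap between groups, and a difference of 0.20 (limma adjusted p = 0.0738). It was called with an intensity trend in the moderation (limma adjusted p = 0.0487) and when only probe sets above the background guide were tested (limma adjusted p = 0.0431). Dnajb4 differed by -0.08 (limma adjusted p = 0.514).

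Exchange factors and partners of HSP70 had a median difference of -0.06 over 7 genes, with 0 called, and 2 were lower at an unadjusted p under 0.05 in limma. These were Bag2, an inhibitor of the ubiquitin ligase that works with HSP70, at -0.20 (limma adjusted p = 0.0825), and Bag4 at -0.14 (limma adjusted p = 0.293), so Bag3 and these relatives differed in sign. Of 13 HSP90 co-chaperones 0 were called, and 4 were higher and 1 lower at that unadjusted p. Stip1, which links HSP70 to HSP90, had means of 9.82 ± 0.06 and 10.10 ± 0.18 (SD, n = 5 each) and a difference of 0.28 (limma adjusted p = 0.109). Ahsa1, which speeds up the ATPase of HSP90, differed by 0.20 (limma adjusted p = 0.12), and for both genes the groups did not overlap. Chordc1 (0.29, limma adjusted p = 0.325) and Fkbp5 (0.34, limma adjusted p = 0.206) were the other higher genes, named after their values were seen.

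Among 8 small heat shock proteins other than Hspb1, 0 were called and 1 was higher at an unadjusted p under 0.05 in limma. Hspb6 differed by 0.21 (limma adjusted p = 0.191) and Hspb3 by -0.11 (limma adjusted p = 0.495), the latter below the background guide. The cytosolic chaperonin and its delivery complex prefoldin had higher means for 13 of 13 measured genes, against 48.5% of tested probe sets, with a median of 0.12. Here 0 were called and 5 were higher at that unadjusted p, with Cct8 at 0.22 (limma adjusted p = 0.0894) and Cct2 at 0.27 (limma adjusted p = 0.116). The core proteasome, which breaks down proteins that cannot be refolded, had higher means for 12 of 13 genes with a median of 0.08; 0 were called, 4 were higher at that unadjusted p, and Psma7 (0.17, limma adjusted p = 0.197) and Psma3 (0.11, limma adjusted p = 0.227) had the lowest p.

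Of the heat shock factors and their partners, 6 genes were measured and 0 called, with 1 higher and 2 lower at an unadjusted p under 0.05 in limma. Hsf2, which can bind together with Hsf1, differed by 0.20 (limma adjusted p = 0.292). Hsf4, best known from the lens, had means of 8.50 ± 0.03 and 8.31 ± 0.07 (SD, n = 5 each), a difference of -0.19 (limma adjusted p = 0.0738), with no overlap between the groups. The Hsf4 difference was called when only probe sets above the background guide were tested (limma adjusted p = 0.0439) and, at the edge, without double knockout replicate 1 (-0.21, limma adjusted p = 0.04999). In the list of other HSF1 targets, 0 of 5 were called and 1 was higher and 2 were lower at that unadjusted p. The lower genes were the metallothioneins Mt1, at -0.58 (limma adjusted p = 0.108), and Mt2, at -0.47 (limma adjusted p = 0.111), whose groups did not overlap. The higher gene, named after its values were seen, was Hmox1, at 0.56 (limma adjusted p = 0.12), whose groups overlapped.

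Chaperones of other compartments were set beside the cytosolic set. Mitochondrial chaperones had a median difference of 0.02 over 10 genes, with 0 called and 3 higher at an unadjusted p under 0.05 in limma. Hspe1, the co-chaperonin, differed by 0.26 (limma adjusted p = 0.0829) and Hspd1, its chaperonin, by 0.12 (limma adjusted p = 0.217), and both are known heat shock genes with a common promoter region. The windows of Hspe1 and Hspd1 held the overlapping motif pair described for Hsph1. ER chaperones had a median difference of 0.43 over 14 genes, and 11 rose (limma adjusted p from 0.00128 to 0.0365): Hspa5, Hsp90b1, Calr, Pdia3, Pdia6, Dnajb9, Dnajb11, Hyou1, Sdf2l1, Manf and Creld2.

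The ER counterparts of single members can be read beside them, chosen after values were seen. Hspa5, the HSP70 of the ER, had a difference of 0.58 (SE 0.08) with SDs of 0.13 and 0.17, while Hspa1b had 0.78 (SE 0.19) with SDs of 0.34 and 0.38. Hyou1, the HSP110 of the ER, had 0.68 (SE 0.08), and Hsph1 had 0.64 (SE 0.16). Hsp90b1, the HSP90 of the ER, had 0.33 (SE 0.05), and Hsp90aa1 had 0.30 (SE 0.09). The SE of the cytosolic gene was the larger in each pair, and the differences within pairs were not tested. None of the 13 ER chaperones with a promoter window held GAANNTTC or TTCNNGAA, where 17% of all genes with a window did. The 5 other HSF1 targets and the 7 HSP70 and HSP110 relatives with a window held neither motif, so this absence is not particular to ER genes. At least 1 motif was held by 4 of 10 J-domain co-chaperones, 4 of 13 HSP90 co-chaperones and 3 of 7 small heat shock proteins with a window. The same was so for 3 of 12 chaperonin and prefoldin genes and 1 of 6 exchange factors and partners of HSP70. Of the 11 ER calls, 10 were lost without the 4 arrays of highest pancreatic acinar marker mean, Sdf2l1 being the exception, while the 11 differences were 0.95 to 1.06 times their values with all arrays and their SEs 1.14 to 1.48 times. In a fit with the mean of the macrophage markers as covariate Hyou1, Sdf2l1 and Creld2 kept their calls. Over all 11 genes the differences were 0.92 to 1.29 times and the SEs 1.24 to 1.52 times those without this covariate. With the immediate early gene mean Sdf2l1 alone was called, and the median difference was 0.93 times and the median SE 1.44 times that without it. The lowest ratio there was 0.65, for Pdia3 (0.18 against 0.28).

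**Figure D5:**
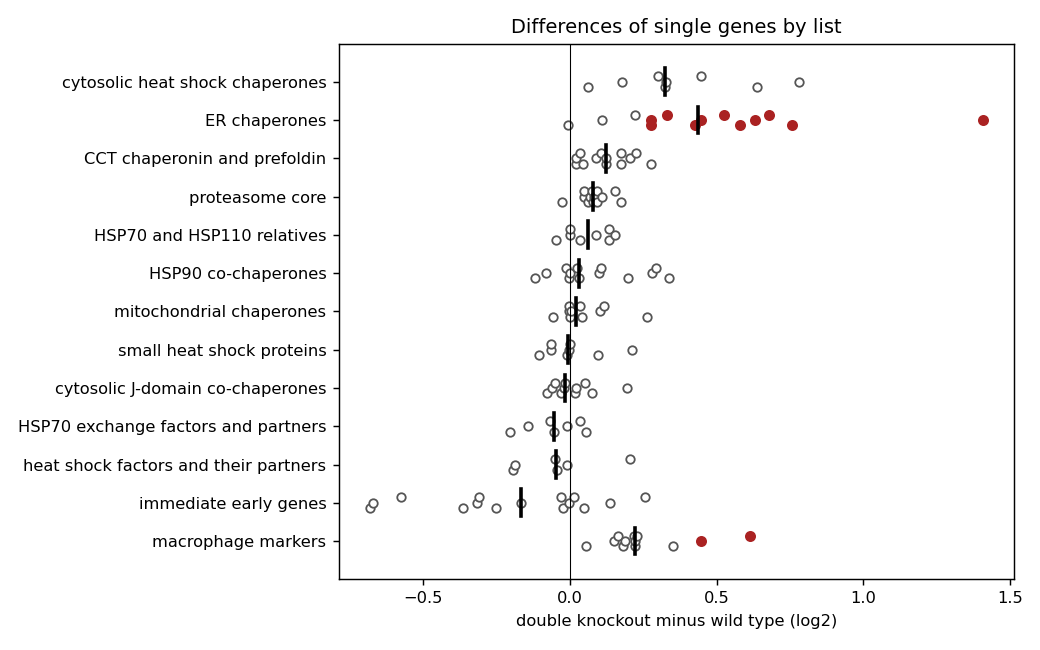
Difference between double knockout and wild-type means (log2) for each measured gene, by list; filled red points passed a limma adjusted p under 0.05, open points did not, and black bars are list medians. The cytosolic heat shock chaperones have a median of 0.32 with 0 called, and the ER chaperones 0.43 with 11 called.

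Some cell type markers were called as higher in the double knockout. Of the immediate early genes, which are sensitive to handling and follow below, 0 were called. The 12 macrophage markers all had a higher mean in the double knockout, with a median difference of 0.22, and Marco (0.61) and Cd163 (0.44) were called (limma adjusted p = 0.0475 and 0.0284). Of 5 cholangiocyte markers 1 was called, Krt23 (0.85, limma adjusted p = 0.0161), and the list median was 0.05. Krt19, Krt7 and Epcam differed by 0.16, 0.05 and 0.02 and Sox9 by -0.12, none of them called. The macrophage markers' mean level per array ran from 8.81 to 9.15 in wild-type and 9.06 to 9.39 in double knockout livers, and 0 of 12 were below the background guide. With this mean as a covariate the differences were 1.14 for Hsph1 and 0.80 for Hspb1, both called (limma adjusted p = 0.0139 and 0.0497), and 0.996 for Hspa1b and 0.56 for Bag3, not called (limma adjusted p = 0.207 and 0.123). For all 8 members the difference was larger with this covariate than without it. The macrophage mean was itself higher in the double knockout (9.19 ± 0.13 against 8.94 ± 0.14, SD, n = 5 each). Its share in these values and that of genotype therefore cannot be told apart.

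Immediate early genes, which respond within minutes to handling and hormones, had a lower mean in the double knockout for 11 of 15, with a median of -0.17. Of these 0 were called and 8 were lower and 1 higher at an unadjusted p under 0.05 in limma, with Ier2 at -0.25 (limma adjusted p = 0.0816) and Btg2 at -0.32 (limma adjusted p = 0.16). Btg2 was called without wild-type replicate 1 (-0.41, limma adjusted p = 0.0362) and without replicate 1 of both groups (-0.37, limma adjusted p = 0.023), and in none of the other 9 fits without a single array (limma adjusted p from 0.156 to 0.289). Their mean level per array was 8.06 to 8.39 in wild-type and 8.03 to 8.23 in double knockout livers, lowest in wild-type replicate 1 among the wild-type arrays. With this mean as a covariate the differences were 0.68 for Hspa1b, 0.36 for Hsp90aa1 and 0.33 for Hspa1a, near their values without it, but 0.32 for Hsph1, 0.17 for Hspb1, 0.19 for Bag3 and 0.06 for Dnajb1, smaller by more than 1.5 times; limma adjusted p ran from 0.37 to 0.917 for these 7 genes. Since this mean was itself lower in the double knockout (8.10 ± 0.08 against 8.30 ± 0.14, SD, n = 5 each), its share in these values and that of genotype cannot be told apart.

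The pancreatic acinar markers were treated in the same way. With their mean as a covariate the Hspa1b difference was 0.78 (limma adjusted p = 0.101) and that of Hsph1 0.61 (limma adjusted p = 0.107). Without the 4 arrays in which they were highest, 3 arrays were left in each group, and differences were 1.09 for Hspa1b (limma adjusted p = 0.0597), 0.72 for Hsph1 (0.0951), 0.48 for Hsp90aa1 (0.0759) and 0.33 for Dnajb1 (0.178), the last 2 over 1.5 times their value with all arrays. In these fits 0 members were called.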

How the data were processed

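Total RNA of 10 livers (5 wild type, 5 double knockout, grouped by the labels' titles) was labelled with biotin after the Ambion WT Expression Kit, per the labels' protocols. The deposited values are on a log2 scale, 1 per probe set. The submitters' processing notes name Affymetrix Expression Console as the authors' software. The sources used here give neither its version nor its algorithm or normalization. Scanner files and detection calls were not used here, and precision is limited by the number of arrays.

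By the platform annotation 23521 probe sets had 1 symbol, 1814 several and 16010 none. The groups were compared with limma 3.58.1 in R 4.3.3 (linear model and empirical Bayes, group as the only term, no filter, two-sided), with Benjamini-Hochberg adjustment over 25335 probe sets and calls at an adjusted p under 0.05. Deviations from group means were correlated with all 14400 permutations within groups. Scripts were tested on simulated data. Named were all members, called genes of each list or otherwise its 2 of lowest p, and the 8 genes most like the inducible mean. Members and lists were chosen with earlier results of these data known. Alternatives included other moderation, scaling and row sets, covariates, a replicate block and leaving out arrays.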

Additional observations from a re-analysis of the deposited data

Results flagged for a closer look

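In groups of 5 arrays, an array was set apart where its gap to the nearest other array exceeded the 95% critical share of the group's range given by Dixon's test. Of 90 groups examined (the members' own probe sets and the named list genes) 10 passed, where chance gives about 1 in 20. Among members, the second Hspb1 probe set stood at 6.11 in wild-type replicate 3, against 5.83 for the next array. An Hspa8 probe set of lower level stood at 9.00 in wild-type replicate 4, below the other wild-type arrays, and at 9.81 in double knockout replicate 5, above the other double knockout arrays. None of the 8 main probe sets of the members passed.

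Among list genes, Hspa4 was at 11.12 in double knockout replicate 5, the highest of its group. Wild-type replicate 1 was the lowest of its group for Bag2 (6.82) and Manf (7.76), and wild-type replicate 5 for Stip1 (9.72). Bag4 was highest in wild-type replicate 4, at 10.26. Wild-type replicate 3 was highest for Hyou1 (9.32) and Creld2 (10.30).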

How the results depend on the processing

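The 8 members kept the sign of their difference under every alternative fitted, with Hspa1a left out of the test on probe sets above the background guide. Fits that changed only the moderation, the rows tested or the replicate block return the same difference by design, so the sign there was fixed beforehand. Members called numbered 2 at an adjusted p under 0.10, 2 with the macrophage covariate, and 0 to 1 when arrays were left out singly. Over all probe sets 224 were called, against 377 above the background guide, 75 with every row tested, 76 with the replicate block, 68 without the 4 pancreas-rich arrays, 23 with the macrophage and 28 with the immediate early covariate, 613 without replicate 1 of both groups (added after the data were seen), and 64 (without wild-type replicate 2) to 253 (without double knockout replicate 1) leaving out single arrays. Of the calls 84 of 224 were higher, against 126 of 222 without wild-type replicate 1, 133 of 253 without double knockout replicate 1 and 460 of 613 without both. Genes called in the pathway lists numbered 11, against 6 with the replicate block, 2 without the pancreas-rich arrays, 3 with the macrophage and 1 with the immediate early covariate, and 9 to 13 without single arrays. The block leaves every difference unchanged by design, since each replicate number occurs once per group, and 5 of the 11 calls were lost under it. In the other 3 of these fits the 11 differences had a median of 0.99, 1.08 and 0.93 times their values in the main fit. The median SE there was 1.37, 1.505 and 1.44 times its value in all arrays without a covariate. Other causes were not tested.

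With the replicate block no member was called, and median r of the inducible pairs was 0.50, against 0.63; leaving out single arrays gave 0.53 to 0.72. Over all tested probe sets, correlations of deviations between same-numbered arrays ran from -0.48 to 0.13, and 0 such pairs matched each other best. For the inducible genes, replicate 5 had the highest mean deviation in both groups (0.23 and 0.25). Replicate 2 was below its group mean in both (-0.10 and -0.30). The block lowered the SE of each inducible gene, as for Hspa1b (0.190 to 0.145) and Hsp90aa1 (0.085 to 0.054), and raised that of Hspa8 (0.040 to 0.047). Whether same-numbered arrays share more than a number was not tested. Dnajb4 reversed to 0.0031 without the pancreas-rich arrays. Quantile normalization applied again and median centring moved the median of all differences to -0.007 and -0.0029.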

Other observations

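The 7 inducible genes were also set against 3 genes outside the set, chosen after values were seen: Hspa5 of the ER, the immediate early gene Egr1 and the macrophage receptor Cd163. Over deviations from group means in 10 arrays, Hspa5 had r from 0.48 (Hsp90aa1) to 0.87 (Bag3) with the 7 genes. Its pairs with Bag3 (r = 0.87, rho = 0.87, exact permutation p = 0.00521, and r = 0.82 without the 2 arrays farthest out in Hspa5) and with Hspa1a (r = 0.79, rho = 0.61, exact permutation p = 0.00694, and r = 0.67 without them) both had an adjusted p = 0.0729 over the 21 relations. Cd163 and Hsph1 had r = -0.71 and rho = -0.76 (exact permutation p = 0.0351, adjusted p = 0.202), and r = -0.49 without the 2 farthest arrays. Egr1 had r from -0.65 with Dnajb1 to 0.09 with Hspa1a, and 0 of the 21 relations passed the adjustment.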
